A study of Mus musculus with 10 samples.

Results

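Macrophage messenger RNA was followed in mouse bladder tumours with and without the DNA damage kinase ATM through 10 genes, picked by symbol from the 23086 in the deposited table: the identity genes Adgre1, Csf1r, Cd68 and C1qa, and the state genes Arg1, Nos2, Mrc1, Cd163, Trem2 and Cd14. All 10 were present and all 10 passed the filter of a mean of at least 10 normalized counts. The tumours came from BBN963 cells, a mouse urothelial carcinoma line, labelled wild type for ATM (ATM-WT, 5 libraries) or knockout (ATM-KO, 5 libraries). They were taken from mice at 500 mm3 and part of each was snap-frozen for total RNA, per the labels. No treatment is named for either group. The labels give no lesion, number of knockout clones, mouse strain or age, and do not say whether each tumour had its own animal. The genotype is given for the BBN963 tumour, and whether host cells such as macrophages share it is not stated. The p-values therefore measure only how these libraries spread, which may be technical.

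Macrophages arise from yolk sac and fetal liver precursors or from blood monocytes, and depend on the receptor encoded by Csf1r and its ligands CSF1 and IL-34. In tumours they take up debris, present antigen, remodel matrix and restrain or support T cells, and their gene expression shifts with local signals. Lipopolysaccharide and interferon gamma induce Nos2, whose enzyme makes nitric oxide from arginine. Interleukin-4, hypoxia and lactate induce Arg1, whose enzyme splits the same amino acid into ornithine and urea. Mrc1 and Cd163 mark scavenging, tissue-type macrophages, Trem2 marks lipid-laden ones, and Cd14 serves recognition of lipopolysaccharide.

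The libraries summed to 20.2 to 22.3 M (mega) normalized counts. Spacing of low values gave a rough depth of 20.6 to 28.3 M reads, against 8.82 M for ATM-WT library A2, so the lowest members carry more counting error there. ATM-WT libraries A2 and A4 stood apart: 4824 and 4266 genes were at 0 in them, compared with 2225 to 3602 over the remaining 8. Their summed level of 10 epithelial markers was also the highest of the 10 libraries. Results without A2 and A4 are given for most members and for the counts of macrophage gene lists. For most other named genes and for the marker lists they are not given. The labels call every sample a urothelial tumour. The epithelial sum ran from 89021 to 243333 normalized counts in ATM-WT and from 2208 to 3812 in ATM-KO, with all 10 markers lower in ATM-KO and none at 0 in all of its libraries. Of 6 pan-leukocyte genes 4 rose and 0 fell, beside 22.1% higher and 24.3% lower of all genes. Their sum was 6566 to 13883 in ATM-WT and 14459 to 16420.1 in ATM-KO. Within ATM-WT it was lowest in A2 (6566) and A4 (7124), against 13153, 13883 and 11497 in A1, A3 and A5. This list was not recounted without A2 and A4. Ptprc (CD45, on nearly all white blood cells) went from 1258 ± 443 to 1763 ± 266, with log2 fold change 0.56 ± 0.23 (limma adjusted p = 0.0649), and did not pass. Here and below such pairs are mean normalized counts ± SD of ATM-WT and then ATM-KO (n = 5 each), and ± after a log2 fold change is its SE. Its call was gained without A1 (0.68, adjusted p = 0.0313), A3 (0.65, adjusted p = 0.042) or A5 (0.65, adjusted p = 0.0471). Without A2 and A4 its difference shrank to 0.15, limma adjusted p = 0.338, and the other single omissions gave 0.36 to 0.60 with no call.

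Promoters of 4 of the 10 members (Cd68, Mrc1, Cd163 and Trem2) were matched in RefSeq on GRCm38.p6, as 300 bases from 250 before to 50 after the start. Cd68 is shown as the identity gene that passed the test, and Mrc1 as a state gene that separated the genotypes relative to the identity genes. The windows were searched on both strands for GAGGAA, the core read by PU.1 (the myeloid factor that opens macrophage genes), and for TGANTCA, the site of AP-1 factors. Capitals mark the matches, which do not overlap, and TTCCTC is the first motif on the other strand. Cd68 lies at chr11:69666121-69666420, minus strand, and Mrc1 at chr2:14229164-14229463, plus strand.
Cd68: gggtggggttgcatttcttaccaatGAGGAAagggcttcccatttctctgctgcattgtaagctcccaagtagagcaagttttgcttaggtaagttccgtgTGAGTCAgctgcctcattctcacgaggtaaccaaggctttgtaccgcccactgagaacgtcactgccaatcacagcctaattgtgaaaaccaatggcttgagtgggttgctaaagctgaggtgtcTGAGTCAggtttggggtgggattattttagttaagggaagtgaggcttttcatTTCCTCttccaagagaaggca
Mrc1: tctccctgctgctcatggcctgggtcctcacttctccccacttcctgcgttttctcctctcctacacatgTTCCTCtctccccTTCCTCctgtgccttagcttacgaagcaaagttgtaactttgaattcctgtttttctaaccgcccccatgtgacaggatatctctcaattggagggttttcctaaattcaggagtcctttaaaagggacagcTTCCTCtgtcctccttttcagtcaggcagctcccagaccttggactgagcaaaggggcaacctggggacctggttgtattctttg
The Cd68 window held 2 matches to GAGGAA and 2 to TGANTCA, and the Mrc1 window 3 and 0. Trem2 held 1 and 1, and Cd163 0 and 0. Of 32851 RefSeq promoters of that length, 28.3% held GAGGAA and 7.81% held TGANTCA on either strand. A match is a run of letters and was not tested as a binding site.

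Among the 10 macrophage genes, Cd68 rose and Arg1 and Cd14 fell in ATM-KO tumours, and the other 7 did not pass the test. Across all 16517 genes tested with limma on log2(value + 1), 46.4% passed at an adjusted p of 0.05, 22.1% higher and 24.3% lower in ATM-KO. The members' share of calls, 3 of 10, thus lay below that background. Values of ATM-WT and ATM-KO did not overlap for 2 of 10 members, Arg1 and Cd14, against 35.2% of all genes. Log2 fold changes are given throughout as ATM-KO over ATM-WT. Their median was 0.47 for the 4 identity genes and -0.65 for the 6 state genes, against 0.00467 for all genes tested. In whole tumours, fewer cells of a type and less RNA per cell cannot be told apart.

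Of the identity genes, none separated the genotypes library by library. Adgre1 encodes F4/80, the classical surface marker of mouse macrophages. Adgre1 read 1783, 403, 1501, 584 and 828 normalized counts in the ATM-WT libraries A1 to A5, and 1078, 736, 955, 635 and 906 in the ATM-KO libraries A11 to A15. The ATM-WT values bracketed all 5 ATM-KO values. The means were 1020.0 ± 596 in ATM-WT and 862 ± 177 in ATM-KO (SD, n = 5 each), with log2 fold change -0.053 ± 0.35 (SE), 95% interval -0.81 to 0.71, limma adjusted p = 0.916. Its sign turned without A1 (0.20), A3 (0.14) or A14 (0.051). Csf1r encodes the receptor that macrophages need to survive. Csf1r read 4604, 1132, 3449, 1841 and 2821 normalized counts in the ATM-WT libraries A1 to A5, and 3652, 2758, 3595, 2703 and 3094 in the ATM-KO libraries A11 to A15. Here too the ATM-KO values lay inside the ATM-WT range, with means of 2769 ± 1358 in ATM-WT and 3161 ± 449 in ATM-KO (SD, n = 5 each) and log2 fold change 0.34 ± 0.30 (SE), 95% interval -0.32 to 1.00, limma adjusted p = 0.382.

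Cd68 encodes a glycoprotein of lysosomes and endosomes that is abundant in phagocytes. Cd68 read 902, 485, 1147, 525 and 724 normalized counts in the ATM-WT libraries A1 to A5, and 1140.3, 835, 1265, 1297 and 972 in the ATM-KO libraries A11 to A15. In ATM-KO, 2 libraries exceeded every ATM-WT value and the rest overlapped the upper ATM-WT libraries. Cd68 rose 1.51-fold, from 757 ± 275 in ATM-WT to 1102 ± 196 in ATM-KO (SD, n = 5 each), with log2 fold change 0.60 ± 0.23 (SE), 95% interval 0.11 to 1.09, limma adjusted p = 0.0453. The call of Cd68 was marginal, since the exact two-sided permutation test gave p = 0.0635, and the call was lost without any one of A2, A4, A5, A11, A13, A14 or A15 (0.46 to 0.64, adjusted p = 0.0595 to 0.106). Without A2 and A4 together the difference was 0.26, limma adjusted p = 0.258. C1qa encodes a chain of complement C1q, which macrophages secrete in most tissues. C1qa read 7449.6, 2556, 9340.0, 3561 and 6237 normalized counts in the ATM-WT libraries A1 to A5, and 9492, 8096, 7859.9, 6711 and 8932 in the ATM-KO libraries A11 to A15. ATM-WT libraries A2, A4 and A5 lay below every ATM-KO library, and A1 and A3 lay inside the ATM-KO range. The means were 5829 ± 2783 in ATM-WT and 8218 ± 1066 in ATM-KO (SD, n = 5 each), with log2 fold change 0.64 ± 0.29 (SE), 95% interval -3.1e-04 to 1.28, limma adjusted p = 0.094. C1qa passed without A3 (0.85, adjusted p = 0.021) and shrank without A2 and A4 (0.11, limma adjusted p = 0.568).

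The identity genes varied much more among ATM-WT than among ATM-KO tumours. Their coefficient of variation was 36.33% to 58.43% over the ATM-WT libraries and 12.97% to 20.49% over the ATM-KO libraries, given as a description with no test of the spread. For all 4 genes A2 was lowest and A4 next, and A1 and A3 were the upper pair. Csf1r, for example, was 4.07-fold higher in A1 than in A2, but only 1.35-fold higher in the top than in the bottom ATM-KO library. Without A2 and A4, Csf1r turned to -0.18, limma adjusted p = 0.383, and Adgre1 read -0.62, limma adjusted p = 0.0532.

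**Figure D1:**
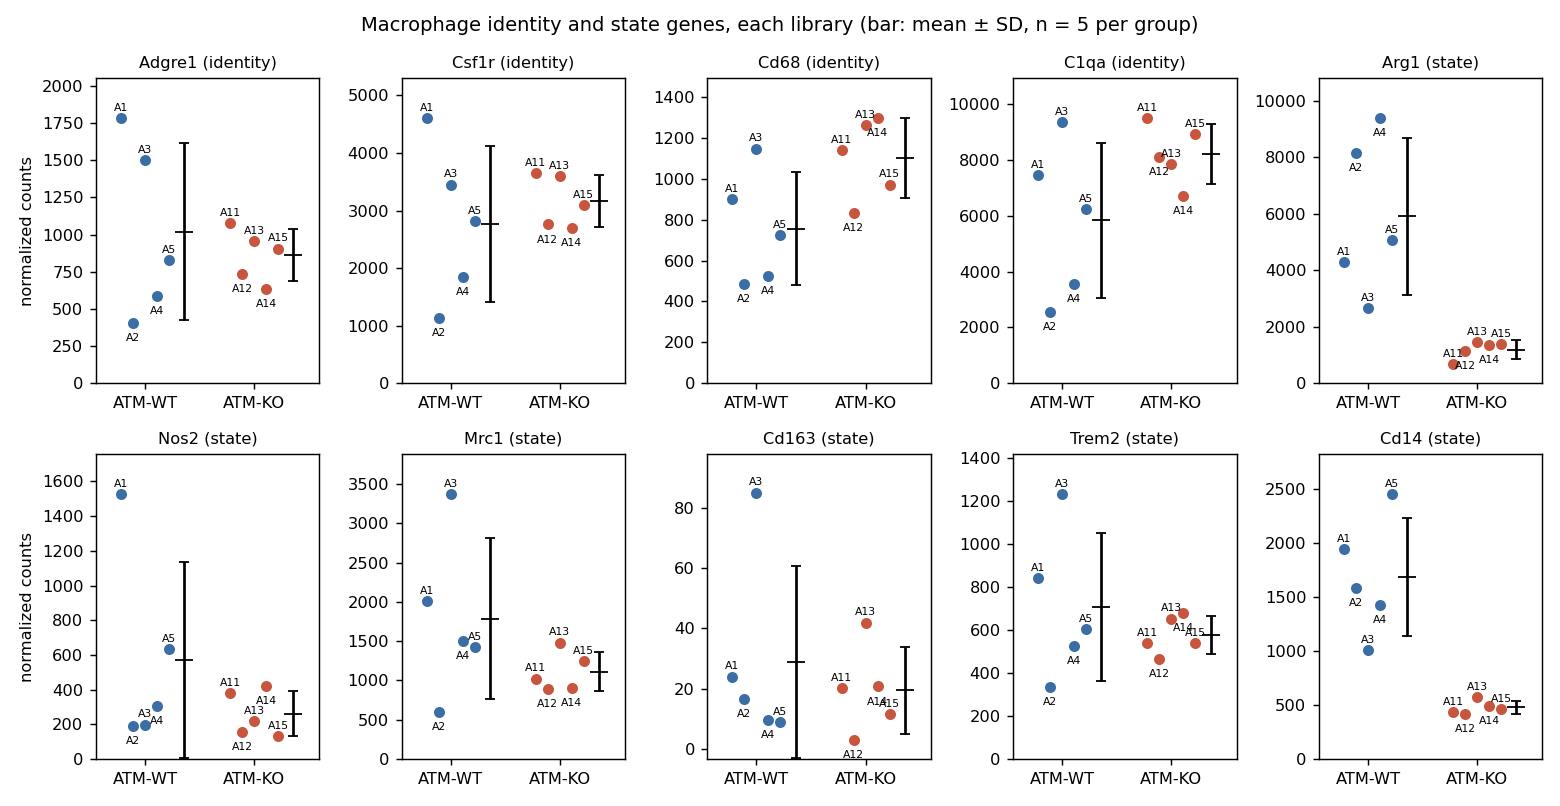
Normalized counts (vertical axis) of each of the 10 macrophage genes in every library, ATM-WT in blue and ATM-KO in red, with mean ± SD (n = 5 per group) as black bars. Arg1 and Cd14 are the panels without overlap, at most 1453 and 571 in ATM-KO, and the identity genes spread widely in ATM-WT with A2 and A4 at the bottom.

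Arg1 and Nos2 encode enzymes that compete for arginine, and only Arg1 passed the test. Arg1 read 4293, 8147, 2672, 9385 and 5067 normalized counts in the ATM-WT libraries A1 to A5, and 663, 1135, 1453, 1346 and 1371 in the ATM-KO libraries A11 to A15. Every ATM-KO library lay below every ATM-WT library. Across all genes tested, 18.2% were without overlap in that direction. Arg1 fell 4.66-fold, from 5913 ± 2779 in ATM-WT to 1194 ± 319 in ATM-KO (SD, n = 5 each), with log2 fold change -2.22 ± 0.32 (SE), 95% interval -2.91 to -1.53, limma adjusted p = 1.11e-04. Its exact two-sided permutation p was 0.00794, the smallest that 5 against 5 can give. Within ATM-WT, A4 and A2, the lowest for the identity genes, were highest for Arg1, and A3 and A1 were lowest. Without A2 and A4 the log2 fold change was -1.75, limma adjusted p = 2.88e-04.

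Nos2 read 1528, 192, 198, 308 and 633 normalized counts in the ATM-WT libraries A1 to A5, and 377, 156, 218, 421 and 133 in the ATM-KO libraries A11 to A15. ATM-WT library A1 held the top value, while A2, A3 and A4 were within the ATM-KO range. The means were 572 ± 564 in ATM-WT and 261 ± 131 in ATM-KO (SD, n = 5 each), with log2 fold change -0.79 ± 0.54 (SE), 95% interval -1.96 to 0.38, limma adjusted p = 0.25. The interval is wide, and a difference from 0.256-fold to 1.30-fold of the ATM-WT level was compatible with it. Nos2 did not pass on the deposited scale in any alternative run, with adjusted p = 0.088 to 0.566 in limma. The difference between log2 Arg1 and log2 Nos2 within a library was 3.71 ± 1.56 in ATM-WT and 2.29 ± 1.03 in ATM-KO (SD, n = 5 each), and the groups overlapped.

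Cd14 encodes the co-receptor that hands lipopolysaccharide to TLR4. Cd14 read 1938, 1576, 1008, 1419 and 2450.2 normalized counts in the ATM-WT libraries A1 to A5, and 435, 419, 571, 492 and 463 in the ATM-KO libraries A11 to A15. All ATM-KO values lay below the lowest ATM-WT value, and they were tight. Cd14 fell 3.39-fold, from 1678 ± 545 in ATM-WT to 476 ± 60.1 in ATM-KO (SD, n = 5 each), with log2 fold change -1.76 ± 0.20 (SE), 95% interval -2.20 to -1.33, limma adjusted p = 1.97e-05. The exact two-sided permutation p was 0.00794, again the smallest possible. Unlike Arg1, Cd14 was not highest in A2 and A4: A5 and A1 held its upper ATM-WT values. Leaving out A2 and A4 gave a log2 fold change of -1.83, limma adjusted p = 1.09e-04.

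The scavenger and lipid receptor genes did not pass with all 10 libraries. Mrc1 encodes the mannose receptor CD206. Mrc1 read 2013, 596, 3377, 1508 and 1426 normalized counts in the ATM-WT libraries A1 to A5, and 1024, 897, 1483, 908 and 1249 in the ATM-KO libraries A11 to A15. The ATM-WT values spanned more than the whole ATM-KO range, with A2 lowest. The means were 1784 ± 1026 in ATM-WT and 1112 ± 251 in ATM-KO (SD, n = 5 each), with log2 fold change -0.50 ± 0.35 (SE), 95% interval -1.27 to 0.27, limma adjusted p = 0.27. Mrc1 passed without A2 (-0.84, adjusted p = 0.0128) and without A2 and A4 (-0.97, limma adjusted p = 0.00849).

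Trem2 encodes a lipid-sensing receptor that signals through TYROBP. Trem2 read 843, 335, 1235, 526 and 605 normalized counts in the ATM-WT libraries A1 to A5, and 539, 466, 654, 678 and 541 in the ATM-KO libraries A11 to A15. A3 was the high and A2 the low extreme, and the ATM-KO values fell between them. The means were 709 ± 346 in ATM-WT and 576 ± 88.3 in ATM-KO (SD, n = 5 each), with log2 fold change -0.18 ± 0.28 (SE), 95% interval -0.79 to 0.43, limma adjusted p = 0.638. Trem2 passed as lower without A2 and A4 (-0.59, limma adjusted p = 0.0393), and without A3 its sign turned (0.059). Cd163 encodes the scavenger receptor for haemoglobin bound to haptoglobin. Cd163 read 24.0, 16.8, 85.1, 9.61 and 8.96 normalized counts in the ATM-WT libraries A1 to A5, and 20.3, 3.06, 41.9, 20.8 and 11.6 in the ATM-KO libraries A11 to A15. These values rest on few reads, roughly 3.31 to 85.4 per library. The means were 28.9 ± 32.0 in ATM-WT and 19.5 ± 14.5 in ATM-KO (SD, n = 5 each), with log2 fold change -0.40 ± 0.73 (SE), 95% interval -1.98 to 1.18, limma adjusted p = 0.682. Libraries of similar depth differed widely in Cd163, as A3 held 85.4 and A5 9.12 estimated reads. The sign of Cd163 turned without A3 (0.11) or A12 (0.095).

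The state genes were next read against the identity genes, to ask what each library holds per unit of macrophage identity message. In each library every gene was divided by the geometric mean of Adgre1, Csf1r, Cd68 and C1qa. These ratios are not corrected for transcript length, so they compare libraries and not genes. The identity level itself was 1863 ± 857 normalized counts in ATM-WT and 2217 ± 275 in ATM-KO (SD, n = 5 each). On the ratio scale all genes had a median log2 difference of -0.38, and the differences that follow stand against that. Of all genes 22.2% of genes passed, 3.65% higher and 18.6% lower, and of the 6 state genes 0 were higher and 3 lower.

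Arg1 gave 1.57, 9.38, 0.979, 7.87 and 2.81 in A1 to A5 and 0.260, 0.590, 0.601, 0.685 and 0.617 in A11 to A15. No ATM-KO ratio reached the lowest ATM-WT ratio, and A2 and A4 stood far above A1 and A3. The log2 difference of Arg1 was -2.60 ± 0.53, limma adjusted p = 0.00135. Cd14 gave 0.711, 1.82, 0.370, 1.19 and 1.36 in A1 to A5 and 0.171, 0.218, 0.237, 0.251 and 0.209 in A11 to A15. The groups were again apart, with a log2 difference of -2.14 ± 0.38, limma adjusted p = 4.10e-04. Mrc1 gave 0.739, 0.687, 1.24, 1.27 and 0.791 in A1 to A5 and 0.401, 0.466, 0.614, 0.462 and 0.562 in A11 to A15. Mrc1 separated the groups on this scale although it did not on the deposited one (-0.88 ± 0.29, limma adjusted p = 0.0383). That call was lost without any one of A3, A4, A5, A11, A12, A13, A14 or A15 (-0.96 to -0.76, adjusted p = 0.0588 to 0.115), and with Csf1r alone as the scale (-0.84, limma adjusted p = 0.0871). Nos2 (-1.17 ± 0.48, limma adjusted p = 0.0943), Trem2 (-0.56 ± 0.28, limma adjusted p = 0.179) and Cd163 (-0.78 ± 0.67, limma adjusted p = 0.453) overlapped between groups and did not pass. Nos2 passed on this scale without A3 (-1.61, adjusted p = 0.00597) and with Ptprc as the scale (-1.35, limma adjusted p = 0.0232). With Ptprc as the scale, Mrc1 (-1.06, limma adjusted p = 0.0125), Arg1 (-2.78, limma adjusted p = 1.19e-04) and Cd14 (-2.32, limma adjusted p = 1.29e-05) were lower as well. Without A2 and A4 the differences relative to the identity genes were -1.64, limma adjusted p = 9.34e-04 for Arg1, -1.72, limma adjusted p = 3.86e-04 for Cd14 and -0.86, limma adjusted p = 0.00587 for Mrc1, so all 3 kept their calls.

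**Figure D2:**
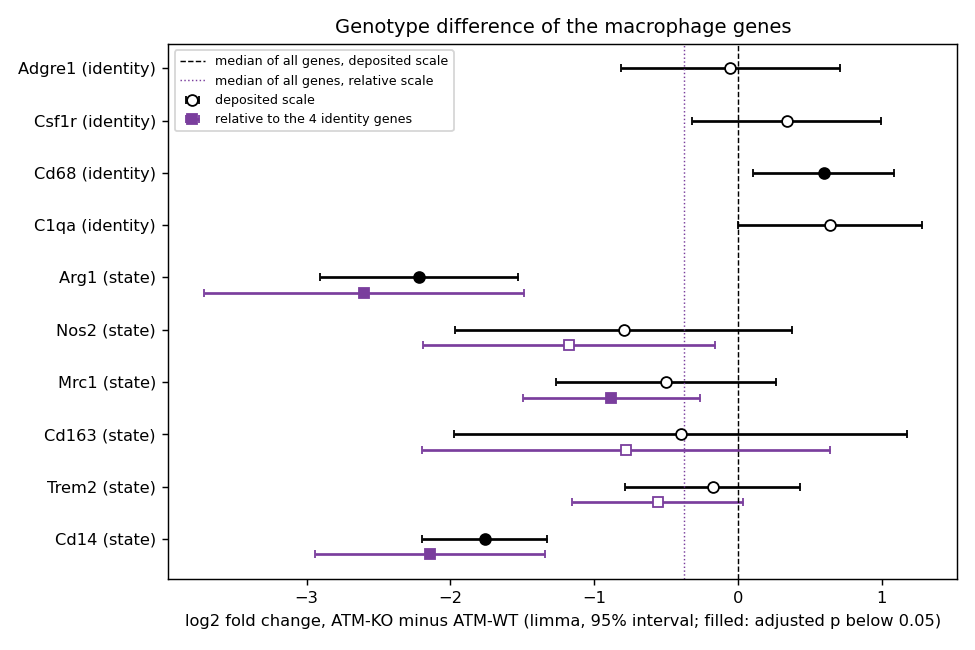
Log2 fold changes (horizontal axis, ATM-KO over ATM-WT, limma, with 95% intervals) of the 10 genes on the deposited scale (black circles) and of the 6 state genes relative to the identity genes (purple squares), filled where the adjusted p was below 0.05. Vertical lines mark the median of all genes on each scale (0.00467 and -0.38); Arg1 and Cd14 lie far to the left of both.

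Arg1, Cd14 and Nos2 are not restricted to macrophages, so markers of other cells were set beside them. Squamous and urothelial epithelium, neutrophils and fibroblasts can also express some of these genes. The summed epithelial markers read 89430.4, 243333, 89021, 192779 and 145732 in A1 to A5 and 2208, 3812, 2390.3, 2692 and 2452 in A11 to A15. In both Arg1 and this sum A2 and A4 were the upper ATM-WT libraries, A1 and A3 the lower, and ATM-KO lay below all ATM-WT libraries. Krt8 (from 10857 ± 4561 to 15.2 ± 10.8) and Krt19 (from 10238 ± 4181 to 10.2 ± 3.17), keratins of simple epithelium, were the epithelial markers with the smallest p. Neutrophil markers gave 0 higher and 5 lower of 6 tested, and their sum of 10 genes was 3555 to 9517 in ATM-WT and 593 to 1730.0 in ATM-KO. Among them S100a8 (from 692 ± 74.1 to 253 ± 124), an alarmin subunit, and Ltf (from 3415 ± 2564 to 10.1 ± 13.8), lactoferrin, which epithelia also make, fell. The mean neutrophil sum went from 5918 to 976, and most of it in ATM-WT was Ltf. The sum of 8 fibroblast markers was 79867 to 360803 in ATM-WT and 27366 to 73671 in ATM-KO, with 0 higher and 7 lower, and in ATM-WT it was lowest in A2 and highest in A1. Of 7 monocyte markers 3 rose and 2 fell, with sums of 622 to 1670.2 and 789 to 1253. The counts of the neutrophil, fibroblast and monocyte lists stand beside 22.1% higher and 24.3% lower of all genes. In no library group was any of these epithelial, neutrophil, fibroblast or monocyte markers at 0 throughout. Their part in the differences of Arg1, Cd14 and Nos2 was not tested.

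Markers of further cell types also moved with genotype beside Arg1 and Cd14. Of mast cell markers, 0 of 6 tested rose and 6 fell, with sums of 677 to 2736 in ATM-WT and 113 to 187 in ATM-KO, and Tpsb2 (from 256 ± 194 to 1.46 ± 0.768) and Cma1 (from 109 ± 65.7 to 2.15 ± 1.36), mast cell proteases, fell. The mast cell sum was highest in A3, where Arg1 was lowest within ATM-WT. Of B cell markers, 2 of 3 tested rose and 0 fell, with sums of 47.8 to 145 in ATM-WT and 436 to 620.0 in ATM-KO, and Blk (from 13.3 ± 5.91 to 238 ± 72.7), a kinase of B cell receptor signalling, and Cd79a (from 20.8 ± 17.4 to 234 ± 23.0), a chain of that receptor, rose. Cd79a had a log2 fold change of 4.20, and 3.29 without A4. Of T cell markers, 1 of 9 tested rose and 0 fell, with sums of 331 to 1181 in ATM-WT and 651 to 2095 in ATM-KO. Cd4, the helper T cell co-receptor gene, went from 102 ± 43.6 to 171 ± 37.8, with log2 fold change 0.83 ± 0.32 (limma adjusted p = 0.0469), a call lost without any one of A2, A4, A5, A11, A12, A13 or A15 (0.64 to 0.91, limma adjusted p = 0.0509 to 0.106) and without A2 and A4 together (0.36). Of endothelial and lymphatic markers, 0 of 7 tested rose, 2 fell and 5 did not pass, with a median log2 fold change of 0.081. Over all genes tested, 22.1% were higher and 24.3% lower. Sums of this list were 3003 to 7858 in ATM-WT and 1666 to 4044 in ATM-KO, with means of 5546 and 2894. Pdpn (from 2879 ± 1471 to 499.6 ± 159), podoplanin, held much of the ATM-WT sum and fell. Kdr (from 819 ± 460.0 to 345 ± 69.5), the VEGF receptor gene, fell too. The Kdr call was lost without any one of A3, A11 or A12 (-1.004 to -0.871, limma adjusted p = 0.0519 to 0.053). The fibroblast matrix genes Dpt (from 4549.6 ± 3702 to 113 ± 44.7) and Lum (from 9367 ± 6849.6 to 1149 ± 397) and the monocyte list gene Plac8 (from 684 ± 259 to 270.2 ± 103) fell, while the monocyte list gene F10 (from 69.4 ± 39.8 to 292 ± 40.7) and the pan-leukocyte genes Laptm5 (from 3029 ± 802 to 4331 ± 232) and Lcp1 (from 2774 ± 860.3 to 4132 ± 215) rose. Across the alternative runs the log2 fold change was 0.29 to 0.66 for Laptm5 and 0.30 to 0.76 for Lcp1. No marker of these lists was at 0 in all libraries of a group, and their part in the results on the macrophage genes was not tested.

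**Figure D3:**
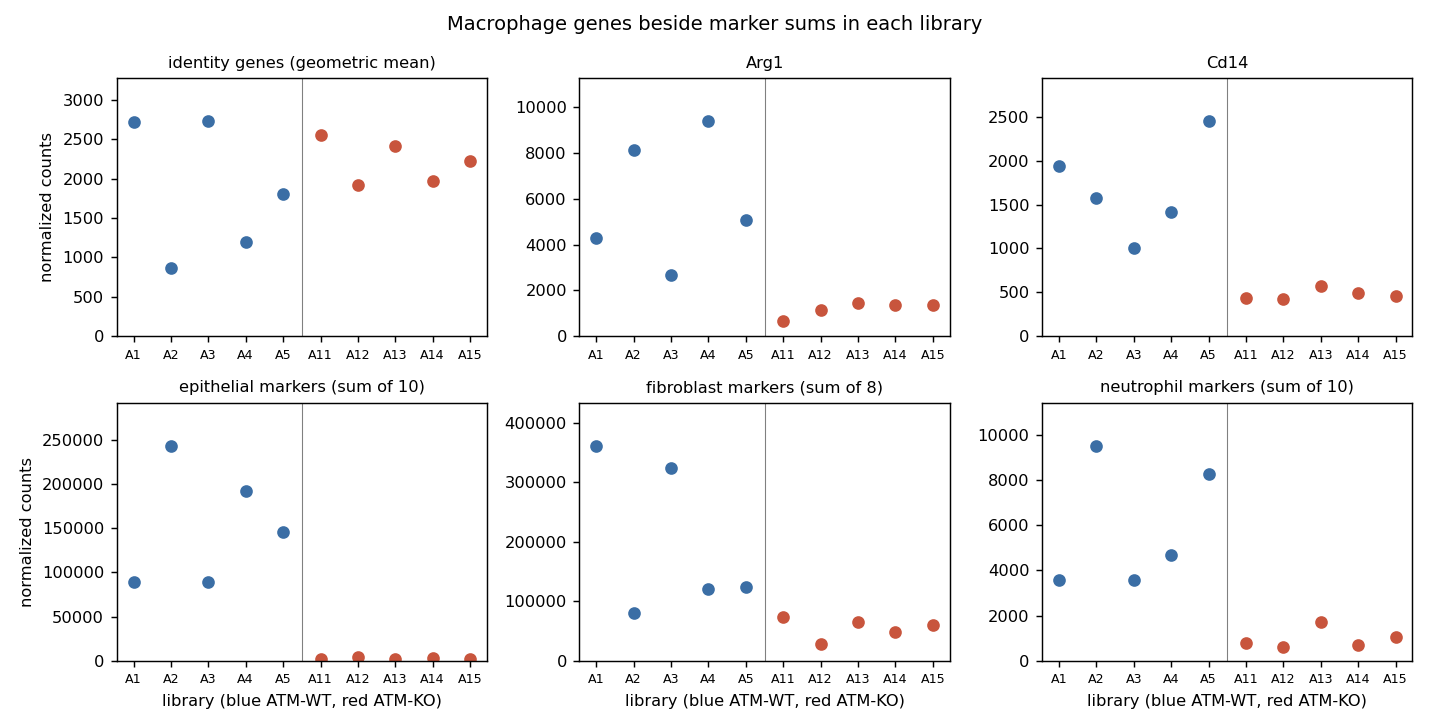
Normalized counts (vertical axes, from 0) in each library (horizontal axes) of the identity genes' geometric mean, Arg1 and Cd14, above the summed epithelial, fibroblast and neutrophil markers, ATM-WT in blue and ATM-KO in red. A2 and A4 are low for the identity genes and high for Arg1 and the epithelial sum, which is at most 3812 in ATM-KO.

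Genes with the most similar profiles were found by the root mean square difference of centred log2 values over the 10 libraries, among 16507 other genes. Nearest the identity level were C1qc (0.11), C1qb (0.12), Pck2 (0.12); C1qc and C1qb encode the partner chains of C1qa, and Pck2 a mitochondrial enzyme of phosphoenolpyruvate synthesis. Nearest Cd68 were Nrp2 (0.12), Ninj1 (0.15), Cd84 (0.15), of which Nrp2 encodes a receptor for semaphorins and VEGF-C and Cd84 a SLAM family receptor of leukocytes. The genes nearest Arg1 were less close: Rbm47 (0.27), Itga6 (0.31), Glt1d1 (0.31). Itga6 encodes the integrin alpha 6 chain of epithelial adhesion and Rbm47 an RNA-binding protein. Rbm47 read 609, 989, 299.6, 1045 and 903 in A1 to A5 and 135, 156, 173, 171 and 180.5 in A11 to A15, so like Arg1 it was highest in A4 and A2 and low throughout ATM-KO. Nearest Cd14 were Gm20186 (0.24), Shtn1 (0.25), Cep170b (0.26). Likeness is a description over 10 libraries of both genotypes.

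Further genes of macrophage biology were counted in 8 lists, 114 tested genes in all. Of these 33 were higher and 16 lower in ATM-KO, beside 22.1% and 24.3% of all genes, with a median log2 fold change of 0.29. Without A2 and A4 the counts were 24 higher and 26 lower.

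Among further macrophage identity genes, 4 of 18 tested genes rose and 3 fell (2 and 3 without A2 and A4), beside 22.1% and 24.3% of all genes. With single libraries left out, 2 to 10 were called higher and 2 to 3 lower (2 higher without A4 or A11, 10 higher without A3). Mpeg1, which encodes the pore protein perforin-2, rose from 3564 ± 1421 to 6141 ± 755, with log2 fold change 0.88 ± 0.25 (limma adjusted p = 0.0106). Ctss, encoding the lysosomal protease cathepsin S, rose from 6743 ± 2034 to 10065 ± 1216, with log2 fold change 0.63 ± 0.20 (limma adjusted p = 0.019), a call lost without A11 (0.56, adjusted p = 0.0501). Over the alternative runs the log2 fold change was 0.44 to 1.04 for Mpeg1 and 0.29 to 0.72 for Ctss. Itgam, the CD11b integrin shared with neutrophils and monocytes, fell from 794 ± 261 to 369 ± 164, with log2 fold change -1.15 ± 0.32 (limma adjusted p = 0.00988), and Maf, a transcription factor of resident macrophages, fell from 3404 ± 849 to 2196 ± 124, with log2 fold change -0.59 ± 0.15 (limma adjusted p = 0.00708). The other 2 complement chains C1qb and C1qc did not pass (adjusted p = 0.14 and 0.121 in limma).

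Signals that feed and recruit macrophages, listed with their receptors, gave 6 higher and 0 lower of 14 tested (4 and 2 without A2 and A4). Of all genes, 22.1% were higher and 24.3% lower with all 10 libraries. Leaving out 1 library at a time gave 4 to 7 higher and 0 to 1 lower (1 lower without A2). The monocyte chemokine gene Ccl2 rose from 344 ± 174 to 785 ± 124, with log2 fold change 1.34 ± 0.31 (limma adjusted p = 0.00349). The other chemokine genes of the list did not pass: Ccl7 (0.085, limma adjusted p = 0.826), Ccl12 (-0.28, limma adjusted p = 0.603) and Cx3cl1 (-0.19, limma adjusted p = 0.443). Tgfb1, a suppressive cytokine gene, rose from 2329 ± 717 to 5881 ± 549, with log2 fold change 1.39 ± 0.18 (limma adjusted p = 6.30e-05). The cytokine gene Csf2 (GM-CSF), at low levels, rose from 16.8 ± 18.6 to 69.0 ± 33.8, with log2 fold change 2.86 ± 0.90 (limma adjusted p = 0.0198), with a fold change of 2.08 on the log2 scale without A4, 3.46 without A1 and 1.38 without A2 and A4. Csf2rb, the beta chain of its receptor, rose from 797 ± 254 to 1309 ± 188, with log2 fold change 0.77 ± 0.20 (limma adjusted p = 0.00797). Il34, the second ligand of the Csf1r receptor, also rose (from 419 ± 145 to 611 ± 105), while Csf1 averaged 1427 ± 579 and 1734 ± 112 and did not pass (limma adjusted p = 0.223). Il34 and Csf1 were singled out after their values were seen, as the ligands of Csf1r.

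The interleukin-4 list mixes genes that respond to the cytokine, as Arg1 does, with parts of its pathway such as receptor chains. In it 7 of 14 tested genes rose and 2 fell (7 and 3 without A2 and A4), beside 22.1% and 24.3% of all genes. The 4 genes with the smallest p, named below, all rose. With single libraries left out, 7 were called higher and 1 to 2 lower (1 lower without A13, A14 or A15). The eosinophil chemokine gene Ccl24 rose from 4.81 ± 5.13 to 352 ± 107, with log2 fold change 6.38 ± 0.60 (limma adjusted p = 4.53e-06), Ccl17, a chemokine gene for CCR4-bearing T cells, rose from 48.1 ± 30.1 to 362 ± 172, with log2 fold change 2.88 ± 0.46 (limma adjusted p = 2.70e-04), and Pdcd1lg2 (PD-L2) rose from 35.4 ± 11.2 to 136 ± 24.2, with log2 fold change 1.97 ± 0.31 (limma adjusted p = 2.17e-04). Il13ra1, a receptor chain for interleukin-13, rose from 2372 ± 371 to 4215 ± 380.2, with log2 fold change 0.84 ± 0.11 (limma adjusted p = 7.81e-05). Dendritic cells also express Ccl17 and Pdcd1lg2. Of 10 dendritic cell markers 6 rose and 0 fell, with sums of 1040.1 to 1656 in ATM-WT and 3552 to 4426 in ATM-KO. Among them Itgax (from 857 ± 154 to 2657 ± 367) and Flt3 (from 36.2 ± 29.0 to 419 ± 32.4) rose. The mean sum went from 1350 to 3913, and most of it was Itgax in both groups. The part of dendritic cells in the rise of Ccl17 and Pdcd1lg2 was not tested.

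In the inflammatory activation list, whose shares of calls were below those of all genes in both directions, 3 of 17 tested genes rose and 3 fell (1 and 3 without A2 and A4). Leaving out 1 library at a time gave 1 to 4 higher and 3 lower (1 higher without A2, A4, A11, A12 or A13). Il23a, a subunit of interleukin-23, fell from 131 ± 42.7 to 3.37 ± 1.10, with log2 fold change -4.89 ± 0.39 (limma adjusted p = 1.45e-06), and Ptgs2, the inducible cyclooxygenase, fell from 1229.5 ± 426 to 282 ± 106, with log2 fold change -2.13 ± 0.28 (limma adjusted p = 5.86e-05). Ifngr1, a receptor chain for interferon gamma, fell from 1692 ± 283 to 1145 ± 134, with log2 fold change -0.55 ± 0.13 (limma adjusted p = 0.00347), whereas the transcription factor gene Irf5 rose from 578 ± 132 to 947 ± 70.7, with log2 fold change 0.74 ± 0.16 (limma adjusted p = 0.00213). The lipopolysaccharide recognition list, which holds the partners of Cd14, was also below those shares: 1 of 13 tested genes rose and 2 fell (1 and 4 without A2 and A4). With single libraries left out, 1 to 3 were called higher and 2 to 4 lower (3 higher without A1, 4 lower without A2). Quantile normalization gave 3 higher. Lbp, the serum protein that delivers lipopolysaccharide to CD14, fell from 235 ± 142 to 33.5 ± 8.80, with log2 fold change -2.65 ± 0.36 (limma adjusted p = 6.97e-05). Of the signalling kinases, Irak1 fell from 2397 ± 235 to 1687 ± 154, with log2 fold change -0.51 ± 0.10 (limma adjusted p = 0.00114) and Irak4 rose from 449.6 ± 65.7 to 684 ± 32.0, with log2 fold change 0.61 ± 0.12 (limma adjusted p = 0.00121). Tlr4, looked up as the receptor that CD14 serves, went from 351 ± 72.7 to 426 ± 65.3 and did not pass (limma adjusted p = 0.173).

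Around Arg1, 4 of 11 tested genes rose and 1 fell (3 and 2 without A2 and A4), beside 22.1% and 24.3% of all genes. With single libraries left out, 2 to 4 were called higher and 0 to 1 lower (2 higher without A13, A14 or A15, 0 lower without A3, A5, A12, A13, A14 or A15). Sms, the spermine synthase gene downstream of ornithine, rose from 1006 ± 231 to 2797 ± 249, with log2 fold change 1.50 ± 0.14 (limma adjusted p = 3.52e-06), and Slc7a1, the main arginine importer, rose from 1322 ± 175 to 2206 ± 151, with log2 fold change 0.75 ± 0.10 (limma adjusted p = 9.53e-05). The ornithine decarboxylase gene Odc1 rose from 3407 ± 554 to 4281 ± 178, with log2 fold change 0.34 ± 0.11 (limma adjusted p = 0.0236), and the argininosuccinate lyase gene Asl rose from 587 ± 81.0 to 754 ± 84.5, with log2 fold change 0.36 ± 0.13 (limma adjusted p = 0.0328). The Odc1 call was lost without any one of A4, A13, A14 or A15 (0.26 to 0.34, adjusted p = 0.0507 to 0.055) and the Asl call without any one of A1, A3, A5, A12, A13, A14 or A15 (0.32 to 0.35, adjusted p = 0.0566 to 0.0782). Arg2, the mitochondrial arginase gene and looked up for its relation to Arg1, averaged 42.7 ± 23.7 and 31.5 ± 2.85 (limma adjusted p = 0.572).

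In the list of resident and scavenger receptors, the company of Mrc1 and Cd163, 3 of 10 tested genes rose and 2 fell (2 and 4 without A2 and A4). These counts stand beside 22.1% higher and 24.3% lower of all genes. Leaving out 1 library at a time gave 2 to 4 higher and 2 to 3 lower. Msr1, scavenger receptor A, rose from 659 ± 246 to 1469 ± 94.7, with log2 fold change 1.25 ± 0.24 (limma adjusted p = 0.00107), and the fatty acid and lipoprotein receptor gene Cd36 rose from 51.6 ± 26.3 to 187 ± 91.0, with log2 fold change 1.83 ± 0.37 (limma adjusted p = 0.00143). Slc40a1, the iron exporter ferroportin, fell from 3021 ± 1192 to 620.2 ± 90.0, with log2 fold change -2.21 ± 0.22 (limma adjusted p = 6.04e-06), and Gas6, a ligand of the receptors that clear dying cells and also a fibroblast product, fell from 3419 ± 1874 to 343 ± 74.4, with log2 fold change -3.18 ± 0.30 (limma adjusted p = 4.77e-06). Among genes of the TREM2 and lipid-handling list, 5 of 17 tested genes rose and 3 fell (4 and 5 without A2 and A4), beside the same shares. Leaving out 1 library at a time gave 3 to 5 higher and 3 lower (3 higher without A2, A5, A13, A14 or A15). The lipid droplet coat gene Plin2 rose from 1980.0 ± 342 to 9055 ± 1116, with log2 fold change 2.20 ± 0.13 (limma adjusted p = 1.78e-07) and the galectin gene Lgals3 rose from 5594 ± 714 to 9332 ± 2025, with log2 fold change 0.72 ± 0.15 (limma adjusted p = 0.00135). The tetraspanin gene Cd9 fell from 6499 ± 898 to 4051 ± 355, with log2 fold change -0.68 ± 0.11 (limma adjusted p = 2.73e-04) and the fatty acid binding protein gene Fabp5, also high in squamous epithelium, fell from 15685 ± 6129 to 6999.8 ± 943, with log2 fold change -1.08 ± 0.24 (limma adjusted p = 0.00245). Several of these genes are expressed by tumour and stromal cells too, and the part of each cell type was not tested.

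**Figure D4:**
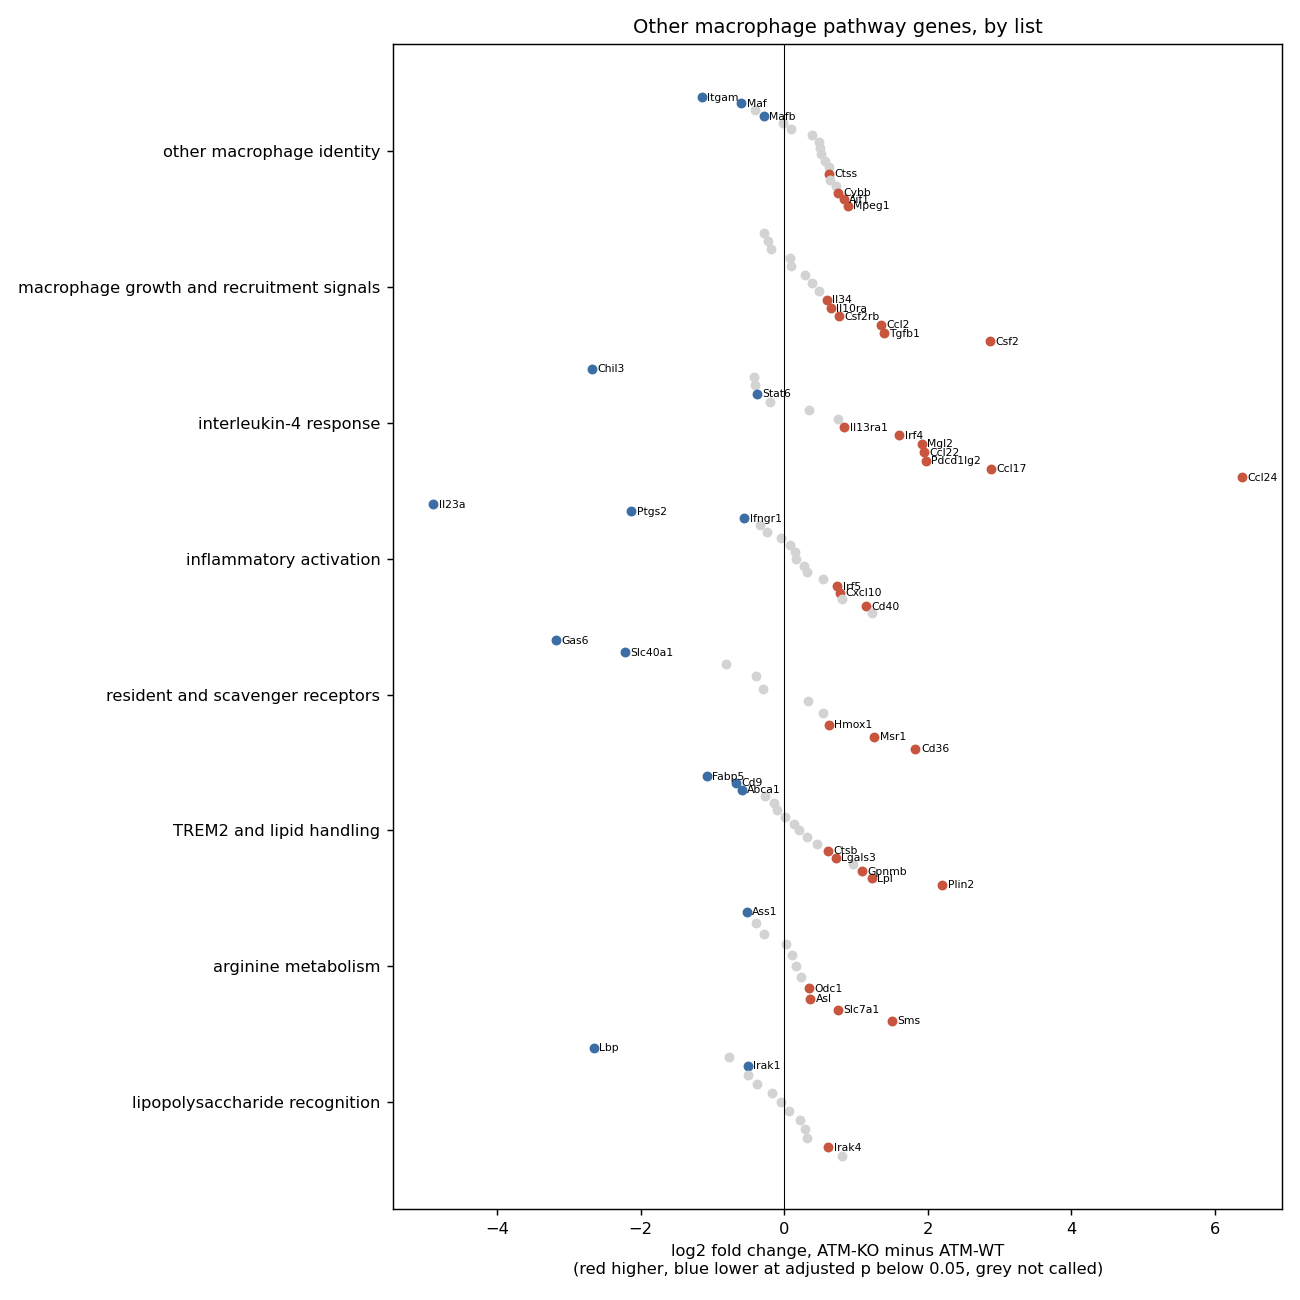
Log2 fold change (horizontal axis, ATM-KO minus ATM-WT) of each tested gene in the 8 lists (vertical axis), red where higher, blue where lower and grey where not called. Every list but the growth and recruitment signals holds calls in both directions, and Ccl24 (6.38) and Il23a (-4.89) mark the ends.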

How the data were processed

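Total RNA of 10 tumours, 5 per genotype, was extracted and made into libraries by a company, per the labels. A single deposited table holds the normalized count of each gene symbol, a signal that is never negative. Tools named by the submitters' processing notes are Salmon, STAR and DESeq2; their versions and roles, and the build, were not given in the sources used here. The columns name a genotype and a library number absent from the sample labels, so they were assigned to groups only, and 0 columns were left unassigned. With the worth of 1 read estimated per library, 59.1% to 69.5% of low values (at most 20 reads) were whole to within 0.05 read, so whole reads were not recovered and no count model was run.

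Genes with a mean of at least 10 were tested on log2(value + 1), which understates changes of low genes, in R 4.3.3 by limma 3.58.1, using lmFit and a trended eBayes, and Benjamini-Hochberg adjustment over all genes. SE and 95% intervals come from that fit. A second fit subtracted each library's mean log2 identity level. Permutation tests enumerated all splits. The procedure was tested on simulated data that took the means and spreads of ATM-KO for both groups. That simulation does not cover the wider spread of ATM-WT. The members and lists were chosen with earlier results of these data known. Named are all members, up to 4 genes per pathway list by smallest p, up to 2 per marker list, and the 3 most similar profiles. Tables used Python 3.11.15, pandas 2.3.3 and scipy 1.17.1; figures used matplotlib 3.10.9. Alternatives covered pseudocounts of 0.1 and 10, no filter and a minimum mean of 50, upper-quartile and quantile scaling, eBayes settings, array weights, other identity scales and leaving out libraries.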

Additional observations from a re-analysis of the deposited data

Results flagged for a closer look

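Cd163 in ATM-WT library A3 read 85.1 normalized counts, far from the other 4 ATM-WT libraries at 24.0, 16.8, 9.61 and 8.96. Its gap to the next library was 0.802 of the group's range, above the Dixon limit of 0.71 for 5 samples. It was the only 1 of 20 member and group combinations past that limit, and chance flags about 1 in 20. Mrc1 (3377) and Trem2 (1235) were also highest in A3 within ATM-WT, without passing the limit.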

How the results depend on the processing

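Arg1 and Cd14 kept their direction and call in every alternative run, at -2.47 to -1.75 (adjusted p = 2.28e-05 to 8.19e-04) and -1.93 to -1.61 (adjusted p = 3.29e-06 to 1.89e-04) with limma. The count of members called higher was 1 with all libraries, 0 without the eBayes trend (Cd68 adjusted p = 0.077), 0 without A2 and A4, and 0 to 2 when each library was left out in turn. The count called lower was 2, and 4 without A2 and A4, where Mrc1 and Trem2 joined. Of pathway list genes, 26 in place of 16 were called lower without A2 and A4, with no share of all genes from that fit beside the count. Relative to the identity genes 3 were called lower, and 5 with array weights, a fit whose weights stopped short of convergence. Mrc1 on that scale lost its call under quantile normalization (-0.86, limma adjusted p = 0.0556) and without the trend (adjusted p = 0.0511). The uncalled Adgre1, Trem2, Csf1r and Cd163 changed sign. Leaving out single libraries gave -0.33 to 0.20 for Adgre1, -0.41 to 0.059 for Trem2 and -0.76 to 0.11 for Cd163. Adgre1 was 0.20 without A1, 0.14 without A3 and 0.051 without A14. Trem2 was 0.059 without A3, and Csf1r -0.18 without A2 and A4. Cd163 was 0.11 without A3, 0.095 without A12, 0.21 with quantile normalization, 0.051 with array weights, and 0.43 with array weights relative to the identity genes. Cd163 left the test at a minimum mean of 50. Quantile normalization moved the median of all genes to 0.13. Of 51 list genes named by the rule, 6 changed call somewhere (Ctss, Odc1, Asl, Cd4, Kdr and Ptprc). Quantile normalization ended the calls of Ctss (0.47, limma adjusted p = 0.0784) and Odc1 (0.22, limma adjusted p = 0.143). The cause of these changes was not tested. Counting error is largest for Cd163 and in library A2, and its part was not tested. No paired analysis was possible because the columns carry library numbers that the sample labels do not.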
